A study of Homo sapiens with 39 samples.

Results

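The genes described here are 10 that encode parts of the human replicative DNA helicase or load it at origins: MCM2, MCM3, MCM4, MCM5, MCM6, MCM7, MCM10, CDC6, CDT1 and GINS2. They were taken by gene symbol from the annotation of an Illumina BeadChip, which held 11 probes for them among 20589. All 10 genes passed the filter on dim probes and stood among the 11538 genes tested. MCM7 had a second probe, which is given where it disagrees, while the reported fit uses the brighter one. Total RNA was measured on 39 arrays from IM-9, an Epstein-Barr virus-carrying B-lymphoblastoid line (19 arrays), and U266, a human myeloma line (20 arrays). The labels call IM-9 sensitive and U266 tolerant to ch128.1Av, a fusion of avidin with an antibody against transferrin receptor 1, the receptor through which cells take up iron. Control cells of each line were sampled at 0, 1, 3, 9 and 24 h, the later ones in buffer, and treated cells at 1, 3, 9 and 24 h in 10 nM ch128.1Av. The resulting 18 groups held 2 arrays each, except for 3 arrays of treated IM-9 at 3 h and of treated U266 at 1 and 9 h. Sensitivity is represented by 1 line and tolerance by 1 line, so the response class and the line cannot be told apart. Whether the replicates of a group came from separate cultures is not stated in the labels, and p-values measure only the spread between these samples, which may be technical.

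Before DNA replication, the origin recognition complex and CDC6, an ATPase, together with CDT1, a loading factor, place the MCM2-7 ring on DNA in G1, a step called licensing. MCM2 to MCM7 are the ring's 6 different subunits. In S phase the ring becomes the active helicase when CDC45 and the GINS complex, of which GINS2 is a subunit, join it, and MCM10 then helps the helicase to start unwinding. Many of these genes are known targets of E2F transcription factors, which proliferating cells activate around the G1/S transition. RNA levels say nothing direct about the amount of protein loaded on DNA.

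Promoter windows from RefSeq (GRCh38.p14), each running from 250 bases before to 50 bases after a gene's start, were used for 8 of the 10 genes, with 10 windows because MCM7 had several starts. MCM5 had no window, and MCM4 was not searched because its chromosome was left out for these genes. A search of both strands for the E2F words TTTCCCGC, TTTCGCGC, TTTGCCGC and TTTGGCGC found at least 1 in 7 of the 8 genes, MCM10 being the exception. Over all 35116 windows of the same length in that table, 3.31% held such a word. That share counts windows rather than genes, and MCM7 also had windows without such a word. The 5 windows below belong to the genes called in a comparison of treated with Control cells or of Control cells at 24 h with 0 h. Each reads 5′ to 3′ on the gene's strand, with the E2F words in capitals. They lie at chr2:135876394-135876693 (minus strand) for MCM6, chr3:127598161-127598460 (plus strand) for MCM2, chr16:88803539-88803838 (plus strand) for CDT1, chr16:85688905-85689204 (minus strand) for GINS2 and chr10:13161308-13161607 (plus strand) for MCM10.
MCM6: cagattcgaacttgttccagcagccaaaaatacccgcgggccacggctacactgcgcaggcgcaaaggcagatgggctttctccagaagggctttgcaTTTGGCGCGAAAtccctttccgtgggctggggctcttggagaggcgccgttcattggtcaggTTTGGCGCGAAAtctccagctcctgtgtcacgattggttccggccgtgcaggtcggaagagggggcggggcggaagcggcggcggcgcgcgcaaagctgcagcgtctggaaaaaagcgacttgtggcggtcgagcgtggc
MCM2: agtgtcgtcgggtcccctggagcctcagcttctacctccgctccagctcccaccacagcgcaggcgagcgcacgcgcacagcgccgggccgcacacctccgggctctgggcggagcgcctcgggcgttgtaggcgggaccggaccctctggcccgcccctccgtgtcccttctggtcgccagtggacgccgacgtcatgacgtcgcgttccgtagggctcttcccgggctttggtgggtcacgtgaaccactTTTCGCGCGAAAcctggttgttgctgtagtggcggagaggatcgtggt
CDT1: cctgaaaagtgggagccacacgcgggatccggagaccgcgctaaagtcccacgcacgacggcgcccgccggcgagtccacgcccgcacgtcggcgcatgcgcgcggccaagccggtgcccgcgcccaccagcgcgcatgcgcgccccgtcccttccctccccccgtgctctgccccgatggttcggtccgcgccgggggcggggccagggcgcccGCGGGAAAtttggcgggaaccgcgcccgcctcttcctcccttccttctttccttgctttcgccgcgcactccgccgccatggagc
GINS2: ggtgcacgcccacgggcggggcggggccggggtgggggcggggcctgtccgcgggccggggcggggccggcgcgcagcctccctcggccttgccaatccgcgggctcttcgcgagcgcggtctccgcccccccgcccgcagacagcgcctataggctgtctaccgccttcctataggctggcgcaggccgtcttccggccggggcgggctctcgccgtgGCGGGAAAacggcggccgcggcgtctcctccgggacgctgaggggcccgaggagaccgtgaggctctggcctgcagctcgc
MCM10: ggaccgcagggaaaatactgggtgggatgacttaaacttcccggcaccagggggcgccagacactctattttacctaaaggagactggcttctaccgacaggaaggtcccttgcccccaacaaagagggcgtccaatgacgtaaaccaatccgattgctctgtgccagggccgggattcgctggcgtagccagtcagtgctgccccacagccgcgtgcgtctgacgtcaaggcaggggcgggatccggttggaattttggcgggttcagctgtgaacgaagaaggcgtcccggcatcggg

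The MCM6 window held the most matches, 4, which form 2 overlapping pairs: each pair has TTTGGCGC on the gene's strand, with first bases at -152 and -90 from the start, overlapped by TTTCGCGC on the opposite strand. MCM2 had 1 such overlapping pair, of TTTCGCGC on both strands, just after the start. CDT1 and GINS2 each had a single TTTCCCGC on the opposite strand, at -35 and -31. A search for CCAAT, also on both strands, matched 6 of the 8 genes and 34.6% of all windows. A match is a run of letters only, and binding was not measured.

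The arrays were alike in general quality. Median raw intensity ran from 137.9 to 223.3, 8967 to 10067 probes per array had a detection p under 0.01, and the lowest correlation between replicates was 0.994. Arrays differed in brightness, taken as the upper quartile of raw intensity divided by its 5th percentile, from 3.95 to 11.7, and on 7 U266 arrays the strongest probe exceeded a raw intensity of 60000. Of 9 B cell markers on the array, 7 were detected on every IM-9 array and 1, CD79B, on every U266 array, while PAX5 was detected on none of either line. Of 8 plasma cell markers, 6 were detected on every IM-9 array and 7 on every U266 array. Levels below are log2 of normalized intensity, on which a difference of 1 is a 2-fold change. They are read per gene, since probes of different genes differ in brightness, and differences are understated for dim probes. Where groups are said not to overlap, only the arrays themselves are described, and no share over all genes is given. With 2 arrays against 2, genes that were not called often did not overlap either.

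The lines differed in RNA level for subunits of the same ring, in both directions. Over the 5 Control hours, with 10 arrays a line, 7 of the 10 genes were higher and 3 lower in IM-9 than in U266, while over all genes tested 40.8% were higher and 42.1% lower, so a call here is common. The differences of the 10 genes had a median of 0.35, against -0.0018 over all genes. In bulk RNA, a smaller share of replicating cells and less RNA per replicating cell cannot be told apart.

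In the reported fit, which uses the brighter MCM7 probe, the ring subunit that differed most between the lines was MCM6. Its level in Control arrays ran from 8.83 to 9.56, median 9.27, in IM-9 and from 9.55 to 10.80, median 10.45, in U266, so the lines overlapped only at their edge. IM-9 was lower by 2.09-fold (log2 -1.06, SE 0.0486, limma adjusted p = 2.69e-16). The gap was between -1.32 and -1.21 at 0, 1, 3 and 9 h and shrank to -0.32 at 24 h. MCM2, the other subunit lower in IM-9, had a median of 12.17 in IM-9 and 12.39 in U266, a log2 difference of -0.28 (SE 0.0434, limma adjusted p = 2.73e-06). Its lines overlapped, and at 24 h the Control means differed by only 0.04 in the other direction.

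MCM4, MCM5 and MCM7 stood higher in IM-9. MCM4 lay between 13.20 and 13.56, median 13.42, in IM-9 Control arrays and between 12.12 and 12.78, median 12.41, in U266, with no overlap (1.93-fold, log2 0.95, SE 0.0587, limma adjusted p = 1.33e-13). MCM7 lay between 13.54 and 13.85 in IM-9 and between 12.73 and 13.10 in U266, also with no overlap (log2 0.77, SE 0.0307, adjusted p = 1.48e-17). Although bright, the MCM7 probe passed the detection threshold on 18 of 19 IM-9 and 16 of 20 U266 arrays. Its dimmer second probe gave a line difference of the same direction, 1.23, larger in size than that of MCM6. Over the alternatives and left-out arrays MCM4 reached 1.17 and MCM6 ran from -1.09 to -0.86, so their order depended on the processing. MCM5 was higher by 0.59 (SE 0.0625, limma adjusted p = 4.3e-09) with overlapping arrays. MCM3 differed by 0.10 (SE 0.037, limma adjusted p = 0.0123), less than its range within U266 Control arrays, 10.97 to 11.69.

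The loading factors differed in opposite directions. CDT1 was lower in IM-9, at 11.45 to 12.14 against 12.24 to 12.97 in U266, with no overlap (log2 -0.75, SE 0.0528, limma adjusted p = 2e-12). CDC6 was near the dim end in both lines: its raw intensity had a median of 293 in IM-9 and 223 in U266, and it was detected on 19 of 19 and 18 of 20 arrays. Its levels, 7.98 to 8.07 and 7.82 to 7.94, did not overlap but differed by only 0.13 (SE 0.0159, limma adjusted p = 5.67e-08).

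Both factors that act after loading were higher in IM-9. GINS2 lay between 12.52 and 13.27 in IM-9 and between 12.19 and 12.51 in U266 (log2 0.63, SE 0.0415, limma adjusted p = 5.27e-13), and MCM10 between 10.24 and 10.69 and between 9.46 and 10.23 (log2 0.58, SE 0.0483, limma adjusted p = 5.3e-11). Neither overlapped. The same sign as in the fit was seen in all 9 pairs of same-hour group means, treated and Control, for 8 genes; for MCM2 it was seen in 7 of 9 and for MCM3 in 7 of 9. Scaling to equal medians ended the calls of MCM2 (adjusted p = 0.498) and MCM3 (adjusted p = 0.0509), and the replicate block (adjusted p = 0.0958) and a block for the 7 arrays whose strongest probe exceeded 60000 (adjusted p = 0.0736) ended that of MCM3 as well.

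**Figure D1:**
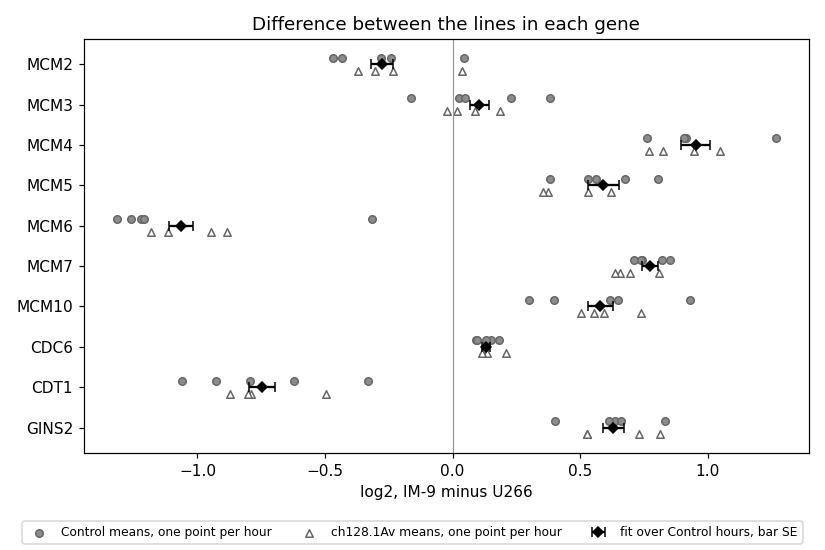
The horizontal axis gives the log2 difference in level, IM-9 minus U266, for each of the 10 genes; diamonds are the fitted difference over the Control hours with its SE, grey circles the Control means of each hour and open triangles the treated means of each hour. MCM6 and CDT1 lie left of 0 at every hour and MCM4, MCM5, MCM7, MCM10, CDC6 and GINS2 right of it, while MCM2 and MCM3 have hours on both sides.

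Companion genes of the same process also differed between the lines, where 40.8% of all genes were higher and 42.1% lower. Of 17 tested genes for origin recognition and licensing control, 7 were higher and 7 lower in IM-9; SKP2, an F-box protein that marks CDT1 for degradation, was higher by 1.19 and MCMBP, a protein that binds MCM subunits, by 0.77. Of 16 for helicase activation and firing, 11 were higher and 2 lower; GINS4, a GINS subunit, was higher by 1.23 and POLE2, a subunit of DNA polymerase epsilon, by 0.99. Of 14 E2F and pocket protein genes, 9 were higher and 4 lower; E2F6 differed by -2.30 and E2F2 by -1.81, each without overlap between the lines.

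MCM6 was highest at 3 h and lower at 9 h in both lines, whether or not ch128.1Av was present. In IM-9 Control arrays its level was 9.23 and 9.15 at 0 h, 9.31 and 9.27 at 1 h, 9.41 and 9.56 at 3 h, 9.00 and 8.83 at 9 h, and 9.28 and 9.47 at 24 h. In treated IM-9 it was 9.41 and 9.30 at 1 h, 9.69, 9.67 and 9.62 at 3 h, 9.08 and 9.15 at 9 h, and 9.19 and 8.68 at 24 h. In both series every 3 h array lay above every 9 h array. From 9 to 24 h the group mean rose in Control cells, from 8.91 to 9.38, and fell in treated cells, from 9.12 to 8.93. Even so, 1 treated array of 24 h lay above both treated arrays of 9 h.

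U266 also stood higher at 3 h than at 9 h, but went lower still at 24 h, where the IM-9 Control arrays were above their 9 h values. Its Control arrays read 10.46 and 10.44 at 0 h, 10.49 and 10.53 at 1 h, 10.80 and 10.80 at 3 h, 10.12 and 10.14 at 9 h, and 9.55 and 9.83 at 24 h. Its treated arrays read 10.40, 10.22 and 10.29 at 1 h, 10.92 and 10.76 at 3 h, 10.24, 10.20 and 10.26 at 9 h, and 9.78 and 9.85 at 24 h. Again no 3 h array overlapped a 9 h array, and the 24 h arrays were the lowest of the line.

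The fall from 3 to 9 h was tested after these values had been seen, together with the step from 0 to 3 h in Control cells. MCM6 fell by 0.57 (SE 0.109, limma adjusted p = 0.0015) in IM-9 Control, by 0.54 (SE 0.0992, adjusted p = 0.000748) in treated IM-9, by 0.68 (SE 0.109, adjusted p = 0.000285) in U266 Control and by 0.61 (SE 0.0992, adjusted p = 0.000305) in treated U266. The 4 comparisons share no arrays. Of all genes tested, 0.347% were called lower in all 4 and 0.364% higher in all 4; MCM6 was the only one of the 10 genes here that was called in all 4. All 4 calls held whichever single array was left out. Equal-median scaling, under which the median gene itself changed by 0.04, 0.11, -0.23 and 0.11 in these comparisons, ended 3 of them (adjusted p = 0.936, 0.647 and 0.597) and kept that in U266 Control (adjusted p = 0.0187).

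**Figure D2:**
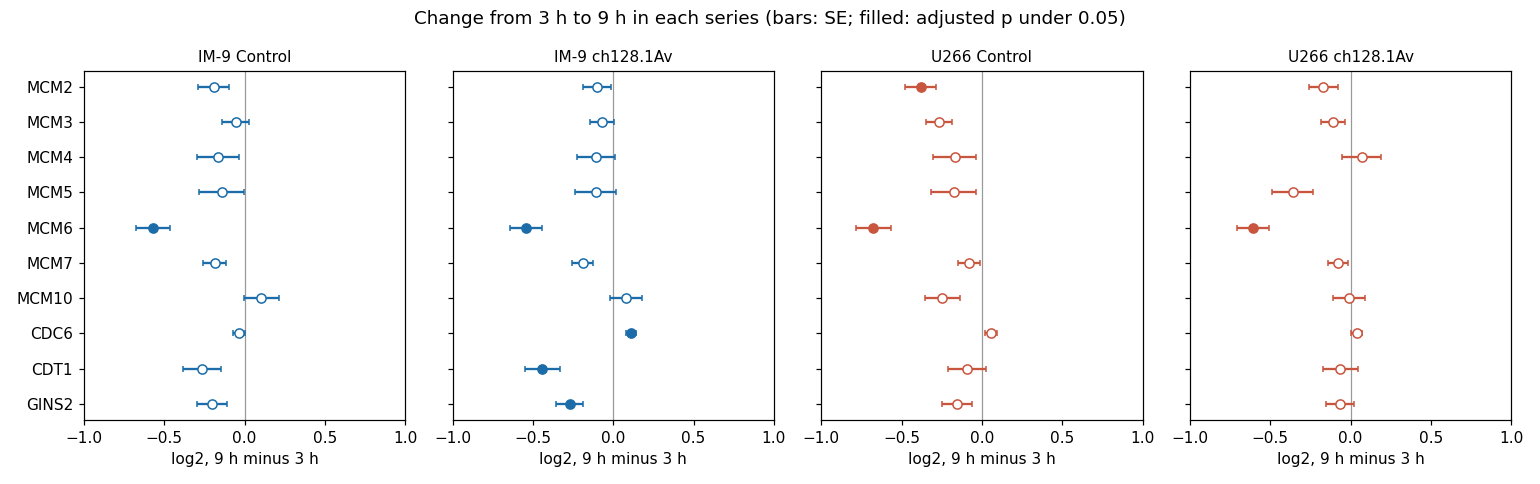
Each panel is 1 series, with the log2 change in level from 3 h to 9 h on the horizontal axis and the 10 genes on the vertical one; points are fitted differences, bars their SE, and filled points have a limma adjusted p under 0.05. MCM6 is filled in all 4 panels, between -0.68 and -0.54.

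In the reported fit, most other genes also lay below their 3 h level at 9 h, but by less. That depended on the scaling. With equal medians, the median of the 10 genes was -0.12 in Control and 0.08 in treated IM-9. In U266 it was -0.59 in Control and 0.17 in treated cells. Genes below 0 then numbered 7, 4, 9 and 2, in the same order. The counts below are those of the reported fit. In IM-9 Control, MCM6 was the 1 gene called and 9 of the 10 were below 0, with a median of -0.18, while 2.86% of all genes were called lower and 3.62% higher. In treated IM-9, 3 were called lower and 1 higher, against 4.56% and 4.61% of all genes. There CDT1 went from 12.08, 12.10 and 12.10 to 11.68 and 11.62, a fall of 0.44 (SE 0.108, limma adjusted p = 0.00982), and GINS2 from 13.00, 13.02 and 13.11 to 12.75 and 12.79, a fall of 0.27 (SE 0.0848, limma adjusted p = 0.0446). Neither gene's groups overlapped. CDC6 rose by 0.11 (SE 0.0325, limma adjusted p = 0.0337) from 7.98, 7.99 and 7.98 to 8.12 and 8.07. Leaving out any 1 of the 5 arrays ended the calls of GINS2 and CDC6, and leaving out either 9 h array ended that of CDT1 (adjusted p = 0.0618 and 0.118).

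In U266, MCM2 was called beside MCM6 in Control cells. MCM2 went from 12.62 and 12.60 to 12.19 and 12.26, a fall of 0.38 (SE 0.0971, limma adjusted p = 0.0181), and with MCM6 made 2 genes lower, against 3.54% of all genes lower and 2.61% higher. All 4 U266 Control arrays of these hours were separated by hour for MCM2, but its call did not hold in any of the 4 fits that left out 1 array. Both 9 h arrays, and neither 3 h array, were among the 7 whose strongest probe exceeded 60000, and a block for those 7 gave a change of -0.22 (adjusted p = 0.55). In treated U266, MCM6 alone was called, against 2.37% of all genes lower and 2.71% higher. MCM5, at 12.26 and 11.83 against 11.90, 11.55 and 11.62, differed by -0.36 (SE 0.128, limma adjusted p = 0.122) and overlapped.

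MCMBP, which binds MCM subunits and is on the licensing list, also fell from 3 to 9 h in all 4 series. The changes were -0.54 (SE 0.0753, limma adjusted p = 3.49e-05) and -0.61 (SE 0.0687, adjusted p = 1.53e-06) in Control and treated IM-9, and -0.29 (SE 0.0753, adjusted p = 0.0206) and -0.38 (SE 0.0687, adjusted p = 0.00102) in Control and treated U266. E2F1, an activator among the E2F factors, fell in IM-9 by 0.63 in Control and by 0.73 in treated cells (limma adjusted p = 0.00502 and 0.00039). In each series, of 17 licensing genes 1 or 2 were called lower and none higher, and of 14 E2F and pocket protein genes 0 to 2 were called lower and none higher. Of 16 firing genes none was called in either U266 series. In IM-9, WDHD1, which acts in replication initiation, was higher by 0.15 in Control (limma adjusted p = 0.00838) and by 0.13 in treated cells (adjusted p = 0.00811), and POLE differed by -0.27 in treated cells (adjusted p = 0.00442). Over all genes, 2.37% to 4.56% were lower and 2.61% to 4.61% higher in these series.

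From 0 to 3 h, MCM6 was 0.29 higher in IM-9 Control (SE 0.109, limma adjusted p = 0.124) and 0.35 higher in U266 Control (SE 0.109, adjusted p = 0.0497). None of the 10 was called in IM-9, where MCM6 was the 1 gene with an unadjusted p under 0.05 and 2.93% of all genes were called higher and 2.89% lower. In U266, MCM3 was called as well, going from 11.28 and 11.21 to 11.69 and 11.48 (log2 0.34, SE 0.0828, limma adjusted p = 0.0121), against 3.74% of all genes in each direction. No 3 h array overlapped a 0 h array for either gene. Leaving out any 1 of the 4 arrays ended the MCM6 call, and leaving out the first 3 h array gave 0.24 for MCM3 (adjusted p = 0.222).

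**Figure D3:**
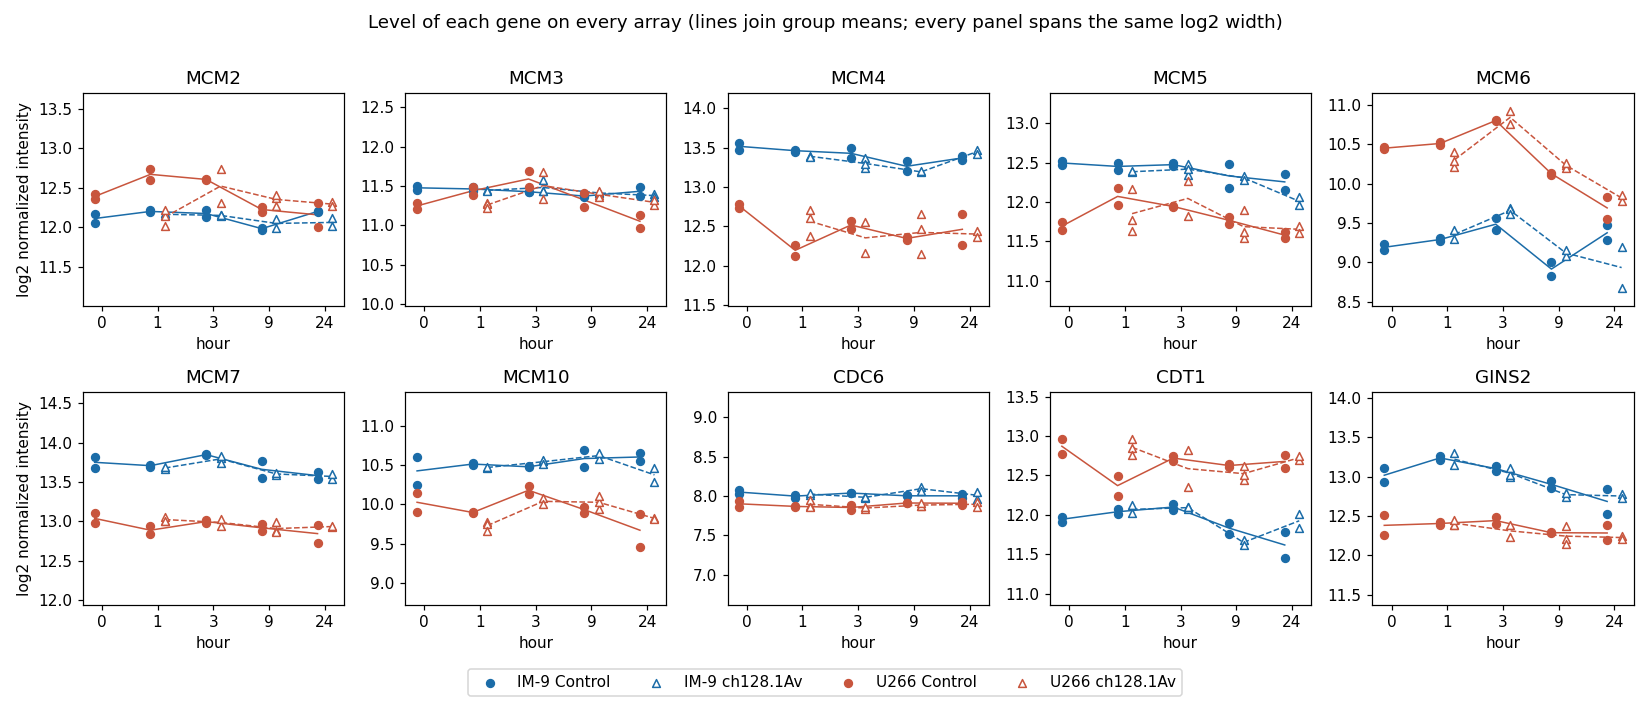
Each panel is 1 gene, with the hour on the horizontal axis (equal steps, not to scale) and the log2 normalized intensity of every array on the vertical axis; filled circles are Control, open triangles ch128.1Av, blue IM-9 and red U266, and lines join group means. MCM6 peaks at 3 h in all 4 series, and CDC6 stays between 7.82 and 8.12 throughout.

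Against 0 h, Control cells at 9 h showed no called gene among the 10 in either line. In IM-9, 9 of the 10 were below 0 (median -0.11) and 1, MCM6, had an unadjusted p under 0.05, with 2.17% of all genes called higher and 1.75% lower. In U266, 7 were below 0 (median -0.11) and 3 had an unadjusted p under 0.05, MCM4 with -0.41 (SE 0.131, limma adjusted p = 0.0868), MCM6 with -0.32 (SE 0.109, adjusted p = 0.105) and CDT1 with -0.24 (SE 0.118, adjusted p = 0.289), against 1.3% higher and 2.09% lower over all genes.

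At 24 h the Control cells of the lines parted in MCM6, while the median of the 10 genes lay below 0 h in both, at -0.10 in IM-9 and -0.19 in U266. In U266 Control, MCM6 went from 10.46 and 10.44 at 0 h to 9.55 and 9.83, a fall of 0.76, or 1.69-fold (SE 0.109, limma adjusted p = 0.000212), and held with each of the 4 arrays left out. MCM10 went from 10.15 and 9.90 to 9.46 and 9.88, a fall of 0.35 (SE 0.108, limma adjusted p = 0.0334). The MCM10 groups are apart by less than the gap between its own replicates, and without the first 24 h array the change was -0.15 (adjusted p = 0.598). The MCM10 call was lost under 7 of 9 alternatives, among them the authors' deposited log2 values (limma adjusted p = 0.0502) and brightness as a covariate (-0.22, adjusted p = 0.338). These 2 of 10 stand against 7.03% of all genes lower and 5.62% higher, and 9 of the 10 were below 0 (median -0.19). Scaling to equal medians ended both calls, at -0.98 (adjusted p = 0.246) for MCM6 and -0.59 (adjusted p = 0.467) for MCM10. The treated U266 arrays at 24 h, 9.78 and 9.85 for MCM6, were also below both 0 h arrays.

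IM-9 Control cells showed no such fall of MCM6, whose 24 h level was 0.18 above that at 0 h (SE 0.109, limma adjusted p = 0.285). GINS2 was the 1 gene called there, at 12.93 and 13.11 at 0 h and 12.85 and 12.52 at 24 h, a fall of 0.33 (SE 0.0929, limma adjusted p = 0.015), against 7.21% of all genes lower and 8.96% higher. CDT1, at 11.91 and 11.98 and then 11.78 and 11.45, differed by -0.33 (SE 0.118, limma adjusted p = 0.0613). Both genes had their lowest Control value on the second 24 h array, and without it the GINS2 change was -0.17 (adjusted p = 0.347); without the second 0 h array it was -0.24 (adjusted p = 0.182). The difference between the lines in this Control change was 0.94 for MCM6 (SE 0.154, limma adjusted p = 0.000216) and 0.53 for MCM10 (SE 0.153, adjusted p = 0.016), IM-9 minus U266, against 12.7% of all genes higher and 9.94% lower. The MCM6 difference held under all 8 alternatives and with each of 8 arrays left out. That of MCM10 was lost with 4 of 8 arrays left out, down to 0.32 (adjusted p = 0.143) without the first U266 array of 24 h. Control arrays at 24 h had higher brightness ratios than at 0 h in IM-9 (9.24 and 9.29 against 6.17 and 4.52) and lower ones in U266 (4.23 and 5.99 against 11.7 and 6.55). Median raw intensity in IM-9 went the other way, at 180.9 and 173.4 against 203.3 and 190. With brightness as a covariate, the differences were 0.57 for MCM6 (adjusted p = 0.0326) and 0.25 for MCM10 (adjusted p = 0.467).

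Companion genes were also called in Control cells at 24 h. In U266, SKP2 fell by 0.68, DTL, the receptor of the ligase that degrades CDT1 in S phase, by 0.47, POLE2 by 0.58 and GINS4 by 0.54, while MCM8, an MCM relative that works in recombination repair, rose by 0.51. The called counts in U266 were 1 higher and 3 lower of 17 licensing genes, 3 lower of 16 firing genes and 1 lower, E2F7, of 14 E2F genes, against 5.62% of all genes higher and 7.03% lower. In IM-9, GMNN, the geminin inhibitor that binds CDT1, fell by 0.80, MCM8 by 0.53, TOPBP1, a scaffold of helicase activation, by 0.91 and E2F1 by 0.59. The called counts in IM-9 were 2 lower of 17, 1 higher and 1 lower of 16, and 3 lower of 14, against 8.96% of all genes higher and 7.21% lower. Every gene named had a limma adjusted p under 0.05, the highest being 0.026 for GMNN.

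Treatment with ch128.1Av left the 10 genes near their same-hour Controls at most times. In IM-9 at 1, 3 and 9 h none was called by limma; changes ran from -0.07 to 0.07 at 1 h, from -0.13 to 0.18 at 3 h and from -0.18 to 0.20 at 9 h, with 0, 0 and 1 genes at an unadjusted p under 0.05. Almost no gene of the whole array was called at those hours either: 0% and 0% higher and lower at 1 h, 0.00867% each way at 3 h and 0.0433% each way at 9 h, with 236, 536 and 1005 genes at an unadjusted p under 0.05. In U266 none of the 10 was called at 3, 9 or 24 h, against 0% higher and 0.00867% lower, 0.026% and 0.0173%, and 0.00867% each way over all genes. Their changes ran from -0.16 to 0.10, from -0.10 to 0.13 and from -0.06 to 0.24 at those hours, with 0, 0 and 1 genes at an unadjusted p under 0.05.

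**Figure D4:**
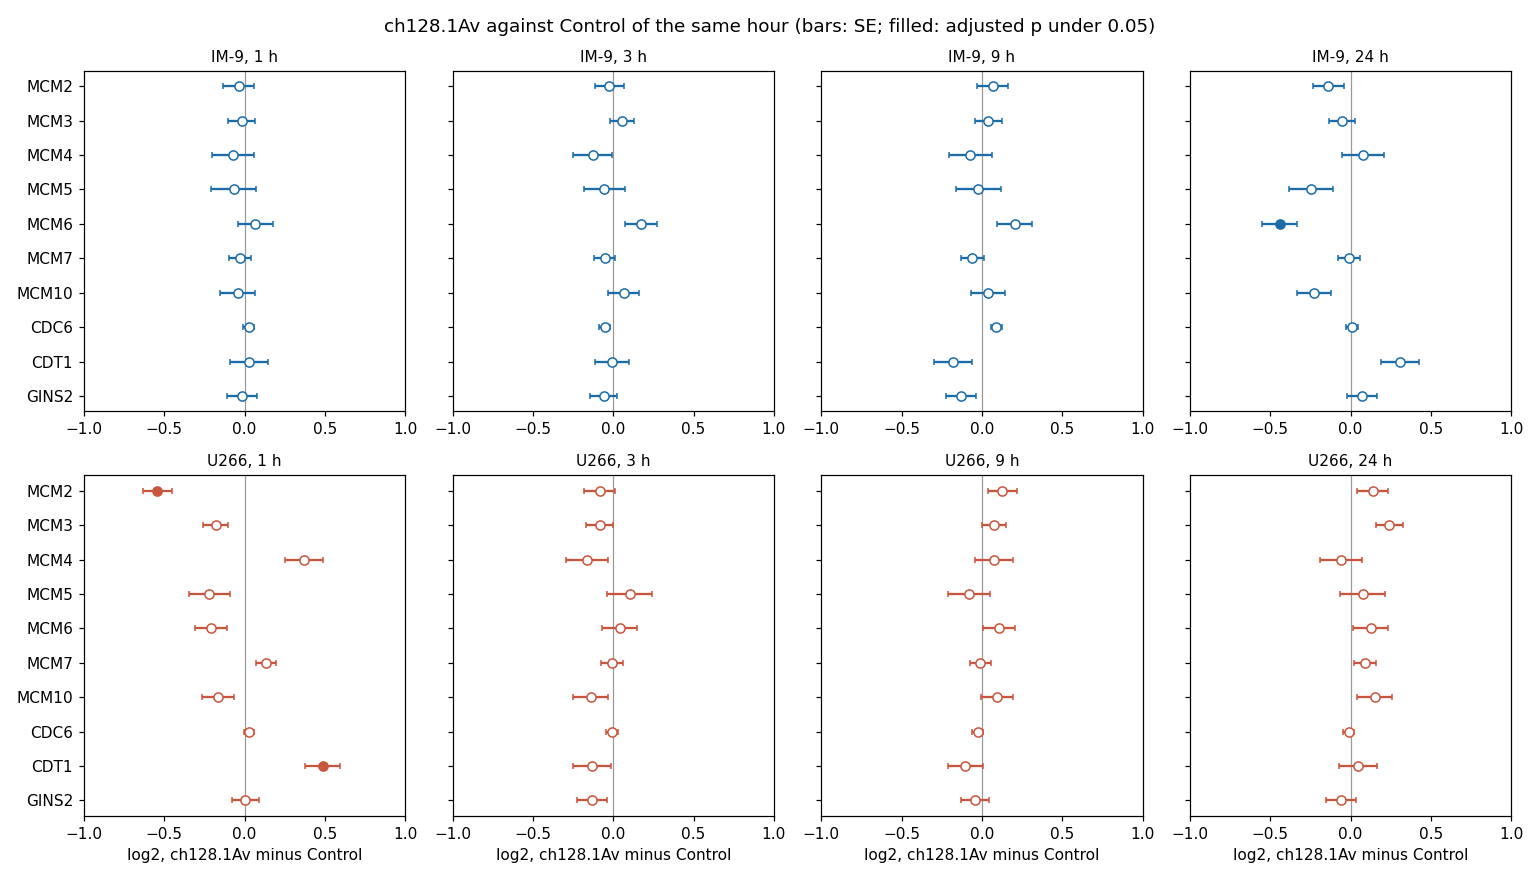
Panels are the lines (rows) and hours (columns); the horizontal axis is the log2 difference, ch128.1Av minus same-hour Control, points are fitted differences, bars their SE, and filled points have a limma adjusted p under 0.05. Filled points are MCM6 in IM-9 at 24 h (-0.44) and MCM2 (-0.54) and CDT1 (0.49) in U266 at 1 h.

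At 24 h, treated IM-9 had less MCM6 than its Controls. The Control arrays read 9.28 and 9.47 and the treated ones 9.19 and 8.68, a difference of -0.44, or 1.36-fold lower (SE 0.109, limma adjusted p = 0.0084). The groups did not overlap, but 1 treated array lay just under the Controls and the other well below, and without the lower one the difference was -0.19 (adjusted p = 0.424). Without the second Control array it was -0.35 (adjusted p = 0.147). MCM6 is 1 of 10, where 7.23% of all genes were called lower and 6.15% higher. The treated arrays had lower brightness ratios, 6.71 and 3.97 against 9.24 and 9.29, and the lower MCM6 value came from the array with the lowest ratio. Median raw intensity, a separate measure, was 161.9 on that array and 137.9 on the other treated array. With the brightness ratio as a covariate the MCM6 difference was -0.25 (limma adjusted p = 0.177). Under scaling to equal medians, which put the median change of all genes at -0.15, the MCM6 difference was -0.87 (adjusted p = 0.0726).

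The remaining genes did not pass the test in IM-9 at 24 h. CDT1 was higher in both treated arrays, 11.83 and 12.01 against 11.78 and 11.45, by 0.31 (SE 0.118, limma adjusted p = 0.0884). MCM5, at 11.96 and 12.06 against 12.16 and 12.36, differed by -0.25 (SE 0.14, adjusted p = 0.274) and MCM10, at 10.46 and 10.28 against 10.55 and 10.65, by -0.23 (SE 0.108, adjusted p = 0.179); neither group overlapped its Control. MCM4, MCM7, CDC6 and GINS2 differed by -0.01 to 0.08, and MCM2 and MCM3 by -0.14 and -0.05. The median over the 10 genes was -0.03.

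Several E2F family genes were higher in treated IM-9 at 24 h. Of 14 E2F and pocket protein genes 5 were called higher and none lower, against 6.15% and 7.23% of all genes. Their median was 0.16, against -0.0017 over all genes. E2F8 and E2F7, both repressors within the family, were higher by 0.68 (SE 0.173, limma adjusted p = 0.0109) and 0.45 (SE 0.112, adjusted p = 0.0101), CCNE1, cyclin E1, by 0.30 (SE 0.0518, adjusted p = 0.000374) and E2F2 by 0.28 (SE 0.0763, adjusted p = 0.0163). Of 16 firing genes, 3 were called higher and none lower, TOPBP1 by 0.51, CDC45, the partner of MCM and GINS in the active helicase, by 0.34 and POLE by 0.25. Of 17 licensing genes, DDB1, an adaptor of the ligase that degrades CDT1, was higher by 0.30, and ORC5 and MCMBP differed by -0.46 and -0.33. The Control arrays of 24 h also enter the change from 0 h above, where TOPBP1 and CCNE1 were called lower in IM-9 at 24 h, so that those 2 results share arrays. The count of 5 E2F genes rested on particular arrays and on the scaling. It was 1 without the second Control array and 1 without the treated array of lower MCM6, 2 with brightness as a covariate and 0 under equal medians, where the list's median was -0.10. Other lists moved too: 4 of 8 plasma cell markers (median 0.21) and 3 of 7 B cell markers tested (median 0.22) were called higher and none lower, and their part in the E2F count was not tested.

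The treatment effect at 24 h differed between the lines for MCM6 alone among the 10. The effect was -0.44 in IM-9 and 0.13 in U266, where Controls read 9.55 and 9.83 and treated arrays 9.78 and 9.85, a difference of -0.57 (SE 0.154, limma adjusted p = 0.0328), against 2.49% of all genes lower and 2.38% higher. It was called under 2 of 8 alternatives and with 3 of 8 arrays left out, ranging from -0.84 to -0.31 over those fits. Without the lower treated IM-9 array it was -0.31 (adjusted p = 0.295). The 24 h Control arrays of both lines also enter the MCM6 difference in Control change above, with the opposite sign, so the results share arrays. At 9 h no difference was called among the 10, which ran from -0.15 to 0.12 with CDC6 the 1 gene at an unadjusted p under 0.05, against 0.00867% each way over all genes and 446 genes at an unadjusted p under 0.05.

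In U266 at 1 h, 2 genes were called. MCM2 read 12.74 and 12.60 in Control and 12.02, 12.15 and 12.22 in treated arrays, a difference of -0.54 (SE 0.0887, limma adjusted p = 0.00157), and at 0 h it had read 12.36 and 12.42. CDT1 read 12.50 and 12.24 in Control and 12.85, 12.96 and 12.76 in treated arrays, a difference of 0.49 (SE 0.108, limma adjusted p = 0.01), after 12.77 and 12.97 at 0 h. For CDT1 both Control arrays at 1 h lay below the 0 h values and 1 treated array just below them, while for MCM2 the Control and treated arrays lay on opposite sides of the 0 h values. MCM4 had Controls at 12.12 and 12.27, treated arrays at 12.60, 12.71 and 12.38 and 0 h arrays at 12.73 and 12.78, but did not pass the test (0.37, SE 0.12, limma adjusted p = 0.0541). Over all genes 4.49% were called higher and 4.44% lower at this hour.

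Array properties moved with the groups at that hour. The Control arrays had brightness ratios of 8.89 and 9.21 and the treated ones 5.62, 3.95 and 4.43, and all 3 treated arrays but neither Control were among the 7 whose strongest probe exceeded 60000. In a fit with those 7 as a block, chosen after the data were seen, MCM2 differed by -0.38 (adjusted p = 0.352) and CDT1 by 0.35 (adjusted p = 0.551). With brightness as a covariate the differences were -0.44 (adjusted p = 0.0644) and 0.32 (adjusted p = 0.198). In IM-9 at the same hour, where the ratios of both groups ran from 4.22 to 6.16, MCM2 and CDT1 differed by -0.04 and 0.03.

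The second MCM7 probe, annotated to the same gene, did not follow the first from 0 h onward in IM-9. It read 8.61 and 8.91 at 0 h in Control cells, then 9.40 and 9.41 at 1 h, 9.68 and 9.58 at 3 h, 9.15 and 9.34 at 9 h, and 9.28 and 8.95 at 24 h, so that every later array exceeded both 0 h arrays. From 0 to 3 h it rose by 0.87 (SE 0.14, limma adjusted p = 0.000325), where the first probe differed by 0.10 (SE 0.0686, adjusted p = 0.512). From 0 to 9 h the second probe differed by 0.49 (SE 0.14, limma adjusted p = 0.0501) and the first by -0.09. From 0 to 24 h the second differed by 0.36 (adjusted p = 0.0887) and the first by -0.17. From 3 to 9 h both probes were below 0, the second with -0.39 (adjusted p = 0.114) and the first with -0.19 (adjusted p = 0.118) in Control cells. In treated cells the second fell by 0.41 (SE 0.128, limma adjusted p = 0.0426) and the first differed by -0.19 (adjusted p = 0.0577). For treated against Control cells at 24 h, the second and first probes gave 0.29 and -0.01 in IM-9, and -0.11 and 0.09 in U266. The line difference in that effect was 0.40 by the second and -0.10 by the first. Signs also differed in U266 for treated against Control at 9 h (0.11 and -0.01) and for treated cells from 3 to 9 h (0.10 and -0.08). None of the second-probe changes for treated against Control cells, for their line difference or for treated U266 from 3 to 9 h was called. In U266 the second probe was dim, with a median raw intensity of 281 and detection on 17 of 20 arrays.

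Within a line the 10 genes moved together only loosely. Over the 45 pairs of genes, the median correlation was 0.25 across the 19 IM-9 arrays, from -0.47 for MCM4 and MCM10 to 0.82 for CDT1 and GINS2, and 0.21 across the 20 U266 arrays, from -0.56 for MCM6 and CDC6 to 0.78 for MCM4 and CDT1. The arrays share hours and treatments, so these values describe them only. Each gene's correlation with the mean profile of the 10, centred within each line over 39 arrays, was 0.77 for MCM7, 0.75 for MCM6 and 0.66 for GINS2, and -0.18 for CDC6. Each of the 10 is part of that mean, which raises its value, and the other genes below were picked as the closest of all. The other genes closest to that profile were GMPS, an enzyme of guanine nucleotide synthesis (0.85), SLC11A2, the divalent metal transporter that moves iron out of endosomes (0.82), PIP4K2C, a phosphoinositide kinase (0.80), NASP, a histone chaperone (0.80), and WWP2, a ubiquitin ligase (0.78). MCM10 and MCM2 also correlated with array brightness, at 0.62 and 0.57, MCM6 and MCM3 at 0.44 each, and CDT1 at -0.51. The other genes ran from -0.29 for GINS2 to 0.01 for MCM5. Levels were centred within each line for these values, while log2 of the brightness ratio was not.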

How the data were processed

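Scanner intensity was deposited as a mean per probe and array; per the file headers and the values it is linear, with no background subtraction and no normalization. It also held the authors' detection score, deposited as a fraction from 0 to 1, and 1 minus this score served as the detection p. A second deposited table held the authors' log2 values, normalized between arrays, whose rank order within each array matched the intensities; it served as an alternative. The labels name BeadStudio. Another 78 columns in the tables were left out.

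Intensities were corrected and quantile-normalized with neqc of limma 3.58.1 (R 4.3.3; offset 16). A probe was kept if detected (p under 0.01) on 2 or more arrays (12080 kept, 8509 removed), with the brightest kept probe per gene. One limma model (lmFit, eBayes) with a mean per group, 18 in all, left 21 residual degrees of freedom; tests were two-sided, with Benjamini-Hochberg adjustment over 11538 genes within each of 22 contrasts and calls at an adjusted p under 0.05. The script was tested on simulated data. Of the contrasts, 6 (3 h against 0 h and 9 h against 3 h) and the block for 7 arrays were added after the values were seen. The members and companion lists were chosen with earlier results of these data known; all members are named, and of each list up to 4 called genes with the smallest p per contrast. Replicate numbers were not used to pair samples, since the labels give no shared culture, batch or day for a number. Correlations of same-numbered deviations ran from -0.70 to 0.29. Whether arrays of different numbers were paired was not tested. Alternatives were the deposited log2 values, equal medians, no background correction, no filter, detection on at least 20 arrays, the mean of a gene's probes, each line by itself, a replicate block, brightness as a covariate and leaving out each array. For arrays, their number limits the precision.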

Additional observations from a re-analysis of the deposited data

Results flagged for a closer look

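The change of MCM6 in Control cells from 0 to 24 h differed between the lines by 0.94 (IM-9 minus U266, SE 0.154, limma adjusted p = 0.000216), with a fall of 0.76 in U266 and a difference of 0.18 in IM-9. That of MCM10 differed by 0.53 (SE 0.153, limma adjusted p = 0.016). The effect of ch128.1Av on MCM6 at 24 h differed between the lines by -0.57 (SE 0.154, limma adjusted p = 0.0328). Each was noted because a test of the difference itself passed the threshold. Arrays of the groups also differed in brightness, and the fits with brightness as a covariate are given above. Both MCM6 differences use the 24 h Control arrays of both lines, which enter them with opposite signs, so these results are not independent.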

How the results depend on the processing

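The count of 10 genes between the lines stayed within 1.5 times under every alternative run, and no called gene changed direction under any alternative. The number of the 10 genes called moved as follows. Scaling to equal medians gave 0 for IM-9 and for U266 Control at 24 h (1 and 2 in the reported fit), for U266 Control 3 h against 0 h (2), for treated against Control in IM-9 at 24 h (1) and U266 at 1 h (2), for the effect difference at 24 h (1), and for 9 h against 3 h in IM-9 Control (1) and treated U266 (1); it gave 1 for the difference in Control change (2) and for treated IM-9 from 3 to 9 h (4). It turned the sign of 59 of 191 uncalled changes. Each line by itself gave 1 for IM-9 Control 9 h against 0 h (0), 2 for IM-9 Control 24 h, treated IM-9 at 24 h and IM-9 Control 9 h against 3 h (1 each), 1 for U266 Control 24 h, U266 at 1 h, U266 Control 3 h and U266 Control 9 h against 3 h (2 each), and 2 for treated IM-9 from 3 to 9 h (4). The deposited log2 values and no background correction gave 1 for U266 Control 24 h and 3 h, 0 for the effect difference at 24 h and 2 for treated IM-9 from 3 to 9 h; no filter gave 1, 1 and 0 for the first 3 of these. With the replicate block, in a design whose labels give no pairing by number, the counts were 1 for U266 Control at 24 h and 3 h, 0 for the effect difference at 24 h and 2 for treated IM-9 from 3 to 9 h, and no other count left 1.5 times the reported one. The replicate block also ended the line call of MCM3. Brightness as a covariate gave 0 for IM-9 Control 24 h, treated IM-9 at 24 h, U266 at 1 h and the effect difference at 24 h, and 1 for U266 Control 24 h, the difference in Control change and IM-9 Control 3 h (0); the mean of a gene's probes also gave 1 for the last. The block of 7 arrays, added after seeing the data, gave 0 for U266 at 1 h and 1 for U266 Control 3 h and 9 h against 3 h. Leaving out 1 array gave 0 to 2 for IM-9 Control 24 h, treated IM-9 at 24 h and the effect difference at 24 h, 1 to 5 for U266 Control 24 h, 1 to 3 for U266 at 1 h and the difference in Control change, 0 to 1 for U266 Control 3 h, 1 to 2 for the 9 h against 3 h steps of IM-9 Control, treated IM-9 and U266 Control, and 1 to 4 for treated U266. The causes were not tested. A slide block was not run, since the headers name no slides. Signal over background limits CDC6 and the second MCM7 probe in U266.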
